A study of Homo sapiens with 12 samples.

Results

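Tacrolimus and voclosporin, each at 100 nM for 24 h, were compared in 3 against 3 RNA-seq libraries of a human podocyte line. The 6 libraries were chosen by their labels, from 12 in the series, and the comparison ran across the 19784 of 62262 deposited genes that passed a filter on low counts. Podocytes are the epithelial cells that wrap the capillaries of the kidney glomerulus. The line is conditionally immortalized with a temperature-sensitive SV40 T antigen. The cells of all 12 libraries had been moved to the non-permissive temperature for 7 to 10 days to differentiate before treatment. The other libraries were 3 from the solvent control (DMSO) and 3 from 100 nM cyclosporine A, abbreviated DMSO and CSA here, with TAC and VCS for the compared drugs. They share 1 estimate of the spread with TAC and VCS in the fit, and their values are set beside the results as description. Nothing in the labels says whether libraries of 1 group came from separate cultures. The p-values therefore measure only the spread between the 12 libraries that remains after a term for the replicate number.

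Both drugs inhibit calcineurin, the calcium-activated phosphatase that lets NFAT transcription factors enter the nucleus, but through different partners. Tacrolimus acts in complex with the immunophilin FKBP12, the product of FKBP1A, whereas voclosporin, an analog of cyclosporine A, acts in complex with cyclophilin A, the product of PPIA. FKBP12 also binds the type I receptors of the TGF-beta and BMP families and holds them inactive in the absence of ligand. BMP receptors phosphorylate SMAD1, SMAD5 and SMAD9, which switch on the ID genes and the inhibitory SMADs.

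Library totals ran from 28808213 (VCS 3) to 36077072 (CSA 3) estimated counts. Mitochondrial transcripts took 6.41% to 10.1% of counts in TAC and 5.9% to 13.4% in VCS, highest in VCS 3. Podocyte identity was partial: ACTN4 averaged 1405 CPM (counts scaled to a common library size) in TAC and 1415 in VCS and SYNPO, which encodes synaptopodin, 55.9 and 56.7, but WT1 averaged only 1.22 and 1.18, and NPHS1 (nephrin) had between 1 and 11 counts in each of the 6 libraries and was not tested. In these bulk libraries fewer cells of a type and less RNA per cell cannot be told apart.

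Of the 19784 genes, 41 (0.207%) differed at an adjusted p under 0.05 in edgeR's quasi-likelihood test with the replicate number as a block, 25 higher in TAC (0.126%) and 16 lower (0.0809%). In 40 of the 41 the 3 TAC libraries did not overlap the 3 VCS libraries; IGFBP3 was the exception. All 41 had the same direction in 3 of 3 numbered pairs, and 31 differed by over 1.5-fold. The genes were chosen by a test of these same libraries, so these counts are descriptions and not further support. Without the replicate block 5 of the 41 passed: SFTPA1, ID3, SAMD11, LINC02593 and GDF5. Leaving out each of the 6 TAC and VCS libraries in turn gave between 8 (without TAC 2) and 33 calls (without VCS 1), and 8 of the 41 were kept in every one of those fits: ATOH8, CGB8, ID1, ID3, SAMD11, SFTPA1, SFTPA2 and KRT5. The genes higher in TAC included 7 listed targets of BMP signalling; CGB8 had the smallest p and H2BC26 the largest difference, and neither is on that list. Those lower in TAC included surfactant and keratin transcripts, the ligand GDF5 and inflammatory genes.

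Across all genes the median log2 difference, coded as TAC minus VCS throughout, was -0.00078, with 49.8% above 0 and 50.2% below. Before adjustment 7.88% of genes had p under 0.05, 3.45% higher in TAC and 4.43% lower. All 3 TAC libraries lay above all 3 VCS libraries in 4.12% of genes and below them in 4.65%. For 12467 genes (63%) the 95% interval of the difference lay inside 1.5-fold either way, and for 15448 (78.1%) inside 2-fold.

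**Figure D1:**
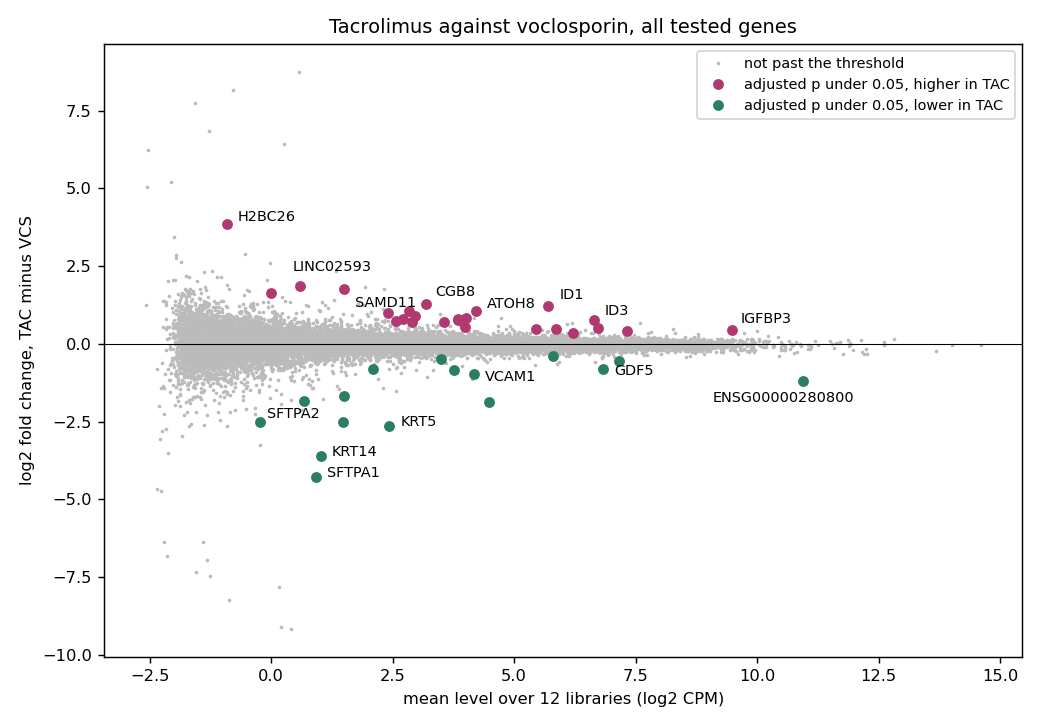
Log2 fold change of TAC against VCS for each tested gene, against its mean level over 12 libraries in log2 CPM. The 41 genes past the threshold are coloured, from SFTPA1 at -4.28 to H2BC26 at 3.85, and 24 of the 25 that are higher in TAC lie between 0.36 and 1.87.

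Promoter windows of 300 bases, 250 before and 50 after the gene start, were read for 29 of the 41 genes from RefSeq (build GRCh38.p14). Windows of 3 genes higher in TAC are printed, ID1 as the listed BMP target with the largest called difference and SMAD6 and SAMD11 for the SMAD motifs in them. Capitals mark the motifs searched on both strands: GTCTNGAC, a SMAD palindrome added after results were seen, and GGCGCC, a GC-rich SMAD element; a longer BMP response composite, the NFAT core GGAAAA and the amino acid response element TGATGNAA were also searched.
SMAD6, chr15:66701986-66702285, plus strand: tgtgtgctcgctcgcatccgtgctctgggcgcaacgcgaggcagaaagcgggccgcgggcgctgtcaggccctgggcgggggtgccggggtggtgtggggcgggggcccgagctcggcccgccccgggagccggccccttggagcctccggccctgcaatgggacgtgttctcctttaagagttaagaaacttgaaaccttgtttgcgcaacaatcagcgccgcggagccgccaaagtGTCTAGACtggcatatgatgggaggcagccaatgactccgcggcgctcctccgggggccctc
SAMD11, chr1:925481-925780, plus strand: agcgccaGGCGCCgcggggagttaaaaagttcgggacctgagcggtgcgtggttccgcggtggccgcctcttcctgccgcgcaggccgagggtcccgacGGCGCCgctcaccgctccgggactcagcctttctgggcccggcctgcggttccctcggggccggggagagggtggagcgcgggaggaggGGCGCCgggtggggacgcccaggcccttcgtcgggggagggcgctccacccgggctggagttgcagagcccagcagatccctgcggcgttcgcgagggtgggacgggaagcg
ID1, chr20:31605039-31605338, plus strand: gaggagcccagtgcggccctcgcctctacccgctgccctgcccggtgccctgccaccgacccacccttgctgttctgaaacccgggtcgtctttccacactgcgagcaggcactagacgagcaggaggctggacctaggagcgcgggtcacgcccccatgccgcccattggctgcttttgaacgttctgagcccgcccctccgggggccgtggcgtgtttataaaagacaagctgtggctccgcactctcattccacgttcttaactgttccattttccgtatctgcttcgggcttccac

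The palindrome lies 12 bases upstream of the SMAD6 start and occurs in 1.58% of the 12917 promoters of tested genes. The SAMD11 window holds GGCGCC at 243, 151 and 62 bases upstream of the RefSeq start used there, which lies inside the gene as GENCODE 29 gives it (923928 to 944581) and downstream of that annotation's first base. That motif is in 3 of 19 promoters of genes higher in TAC and 2 of 10 of genes lower, beside 29% of tested genes. The ID1 window holds neither. The composite, which contains GGCGCC, and TGATGNAA were in none of the 29 windows, and occur in 0.194% and 1.94% of tested genes' promoters. The NFAT core GGAAAA was in 4 of 19 promoters of genes higher in TAC and 4 of 10 of genes lower, beside 20.9% of tested genes. A match of letters is a description of the window and not a binding site.

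Of the lists described here, the BMP-SMAD targets held the most genes past the threshold. Of 18 listed genes 17 were tested, and 7 passed the threshold, all higher: ID1, ID2, ID3, ATOH8, SMAD6, SMAD7 and SMAD9, beside 0.126% of all genes. The list's median difference was 0.48, with 10 members above 0 and 7 below. RUNX2, a bone transcription factor, and BMPER, a secreted BMP-binding protein, lay the other way: their TAC libraries were all below their VCS libraries, at -0.21 and -0.42, with unadjusted p under 0.05 and adjusted p = 0.51 and 0.53. In the blocked fit of only the 6 TAC and VCS libraries 9 members passed as higher and 1 as lower, among 229 genes called in all. Without the replicate block 1 member passed over 12 libraries, as higher, and 0 passed over the 6 libraries. The list and its members were chosen with earlier results of these data known, so the count is not independent support.

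The ID genes encode proteins that bind basic helix-loop-helix factors and block their attachment to DNA. ID1 stood at 93.2, 93.5 and 86.7 CPM in TAC and at 45.5, 42.3 and 32.6 in VCS. The lowest TAC library stood well above the highest VCS library. The log2 difference was 1.20 ± 0.10 (SE from the fit of all 12 libraries, n = 3 per group), adjusted p = 0.00049 in edgeR's test. ID3 was 131, 134 and 153 CPM in TAC and 82.3, 78.8 and 87.3 in VCS, a difference of 0.75 ± 0.08 (adjusted p = 0.0018).

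ID2 was 20.2, 21.4 and 20.3 CPM in TAC and 15.01, 12.4 and 9.01 in VCS. The TAC libraries were tight and the VCS libraries spread, lowest in VCS 3, without overlap (0.80 ± 0.12, adjusted p = 0.028). The ID2 call was lost without TAC 2, TAC 3, VCS 2 or VCS 3. ID4 was 2.75, 2.94 and 2.30 CPM in TAC and 1.02, 1.45 and 1.00 in VCS. Its difference of 1.20 ± 0.23, 95% interval 0.70 to 1.70, did not pass the threshold (adjusted p = 0.084).

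ATOH8, a basic helix-loop-helix transcription factor, was 33.6, 30.1 and 23.7 CPM in TAC and 17.9, 12.8 and 11.7 in VCS. The groups did not overlap, and in both the libraries numbered 3 were lowest (1.05 ± 0.08, adjusted p = 0.00031). SMAD6 and SMAD7, which inhibit receptor signalling, and SMAD9, a receptor-activated SMAD, also rose. SMAD6 was 16.8, 15.4 and 15.4 CPM in TAC and 10.4, 9.94 and 9.12 in VCS (0.69 ± 0.09, adjusted p = 0.0081), a call lost without TAC 1 or TAC 2.

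SMAD7 was 57.4, 55.6 and 50.8 CPM in TAC and 45.0, 40.7 and 32.1 in VCS (0.48 ± 0.07, adjusted p = 0.014). SMAD9 was 12.8, 12.3 and 9.74 CPM in TAC and 6.37, 7.12 and 5.26 in VCS (0.90 ± 0.11, adjusted p = 0.0047). Neither gene overlapped between the groups; the SMAD9 call was lost without TAC 2, and that of SMAD7 without TAC 2, TAC 3, VCS 2 or VCS 3. NOG, the secreted BMP antagonist noggin, differed by 0.74 with an adjusted p of 0.20, and BAMBI, a decoy receptor, by -0.01 (adjusted p = 0.99).

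**Figure D2:**
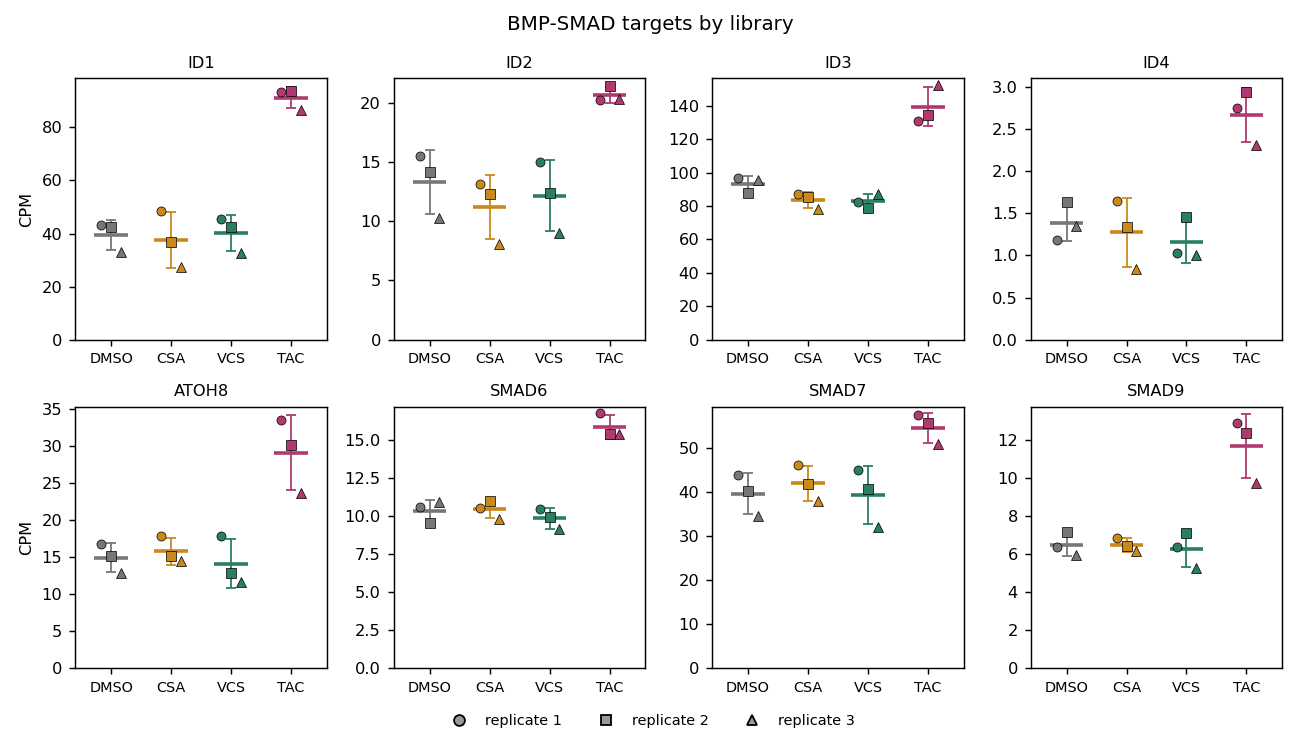
CPM of 8 BMP-SMAD targets in each library of the 4 groups, with replicate numbers as symbols, group means as bars and SDs as error bars. The 3 TAC libraries lie above all other libraries in each of the 8 panels; ID4 did not pass the threshold.

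Set beside DMSO, as description, the fitted differences of these genes were larger in TAC than in VCS. ID1 differed from DMSO by 1.22 in TAC and by 0.02 in VCS, ATOH8 by 0.96 and -0.09, and SMAD7 by 0.47 and -0.01 on the log2 scale. Both columns use the same DMSO libraries. CSA means stayed near VCS: ID1 averaged 37.6 CPM in CSA, 40.1 in VCS and 39.6 in DMSO.

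Of 27 BMP and activin ligands, receptors and antagonists tested, 1 passed, GDF5, a BMP-family ligand, which was lower in TAC; the median was -0.03. GDF5 was 80.7, 80.8 and 65.4 CPM in TAC and 128, 150 and 123 in VCS. The groups did not overlap (-0.82 ± 0.11, adjusted p = 0.014), and the call was lost without TAC 1, TAC 2, TAC 3 or VCS 2. From DMSO (110, 103 and 102 CPM) TAC differed by -0.48 and VCS by 0.34, so the groups lay on opposite sides of the control. BMPR1A differed by 0.13 (95% interval -0.08 to 0.33), BMPR2 by -0.06 (-0.38 to 0.27) and ACVR1 by -0.03 (-0.27 to 0.21).

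TGF-beta targets had 1 of 22 past the threshold, IGFBP3, an insulin-like growth factor binding protein, with 16 members above 0. IGFBP3 was 767, 802 and 1021 CPM in TAC and 569, 554 and 793 in VCS. VCS 3 exceeded TAC 1, so the groups overlapped, and the difference of 0.44 ± 0.07 (adjusted p = 0.029) was not called without the block or without any 1 of the 6 libraries. SKIL, a SMAD corepressor, missed the threshold at 0.37 (adjusted p = 0.055). IL11, a gp130 cytokine, was higher in TAC (147, 122 and 136 CPM against 110, 85.8 and 90.5; 0.51 ± 0.07, adjusted p = 0.014). SNAI1, a repressor of epithelial genes, was 8.80, 9.50 and 11.9 CPM in TAC and 6.72, 5.76 and 6.15 in VCS (0.69 ± 0.12, adjusted p = 0.036). The IL11 call was kept in 2 of the 6 fits with a TAC or VCS library left out, and that of SNAI1 in 1. Of 25 YAP and TEAD targets, IGFBP3 and F3 passed, both higher.

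Further genes were also higher in TAC. SAMD11 (chromosome 1, 923928 to 944581, GRCh38, GENCODE 29) was 5.56, 5.79 and 5.62 CPM in TAC and 1.86, 1.67 and 1.47 in VCS (1.76 ± 0.19, adjusted p = 0.0019). The long noncoding RNA LINC02593, 2911 bases away, was 3.05, 2.85 and 3.10 CPM against 1.02, 0.818 and 0.608 (1.87 ± 0.23, adjusted p = 0.0068), a call lost without TAC 2 or VCS 2. The 3 TAC libraries were close together for both genes and clear of VCS. NOC2L, which overlaps SAMD11 on the other strand, differed by 0.02 (95% interval -0.11 to 0.15). No source used here states whether reads were counted by strand.

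CGB8, a chorionic gonadotropin beta gene, was 11.7, 17.0 and 16.6 CPM in TAC and 4.48, 7.58 and 6.51 in VCS (1.29 ± 0.10, adjusted p = 0.00031). The pseudogene ENSG00000269706, 1110 bases away, rose by 1.65 ± 0.25 (adjusted p = 0.028), a call lost when any 1 TAC or VCS library was left out. The other CGB copies measured, CGB7, CGB3, CGB5 and CGB2, differed by 0.35 to 1.71 and did not pass. These copies are near-identical, so the split of reads among them is uncertain. QPRT, an enzyme of NAD synthesis, F3 (tissue factor), BDKRB1 (the bradykinin B1 receptor) and RASD2 (a small GTPase) were higher by 0.41, 0.47, 0.53 and 0.80, with adjusted p from 0.024 to 0.036; of these, QPRT and F3 kept the call in none of the 6 fits with a library left out and BDKRB1 and RASD2 in 1. NPTX1, a secreted pentraxin, was 25.4, 26.5 and 17.5 CPM in TAC and 15.2, 12.03 and 11.8 in VCS (0.83 ± 0.14, adjusted p = 0.036). BIRC2, an inhibitor of apoptosis protein, differed by 0.36 and KCNA7, a potassium channel gene, by 0.73 (adjusted p = 0.040 and 0.044). With a TAC or VCS library left out, the NPTX1 call was kept in 1 of the 6 fits and those of BIRC2 and KCNA7 in none.

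NF-kB and inflammatory genes lay lower in TAC. Of 35 tested, 28 were below 0, with a median of -0.28, and 3 passed the threshold, beside 0.0809% of all genes: VCAM1, IL1B and CCL2. In all 19 had an unadjusted p under 0.05 and were lower, beside 4.43% of all genes. Leukocyte markers summed to 59.9 to 84.2 CPM in TAC and 79.8 to 84.4 in VCS, with 7 of 9 tested below 0 (median -0.44), 3 lower at an unadjusted p under 0.05 and none past the threshold; CD3E had 0 to 3 counts in each of the 6 libraries. HLA-DRA, LYZ, CD163 and PTPRC averaged 0.60, 0.41, 0.14 and 0.19 CPM in TAC. In VCS they averaged 1.6, 0.97, 0.59 and 0.33, so other members made up most of each sum. The part of the leukocyte markers in the result was not tested. VCAM1, a leukocyte adhesion molecule, was 12.8, 10.1 and 11.1 CPM in TAC and 22.7, 21.5 and 22.1 in VCS. The VCS libraries were close together, above every TAC library (-0.97 ± 0.16, adjusted p = 0.031).

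CCL2, a monocyte chemokine, was 10.0, 6.62 and 10.5 CPM in TAC and 13.0, 13.7 and 23.2 in VCS (-0.86 ± 0.14, adjusted p = 0.036). IL1B, an inflammatory cytokine, was 3.57, 2.64 and 2.21 CPM in TAC and 6.05, 4.09 and 4.58 in VCS (-0.81 ± 0.14, adjusted p = 0.036). Neither overlapped. The IL1B call was lost when any 1 of the 6 TAC and VCS libraries was left out, and CCL2 and VCAM1 each in 4 of the 6 fits. PLAT, tissue plasminogen activator, was 120, 102 and 103 CPM against 183, 138 and 155 (-0.54 ± 0.08, adjusted p = 0.025). KCNIP3, a calcium-binding partner of potassium channels, and G0S2, an inhibitor of lipolysis, differed by -0.50 and -0.39 (adjusted p = 0.034 and 0.036). The calls of PLAT, KCNIP3 and G0S2 were kept in none of the 6 fits with a library left out.

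**Figure D3:**
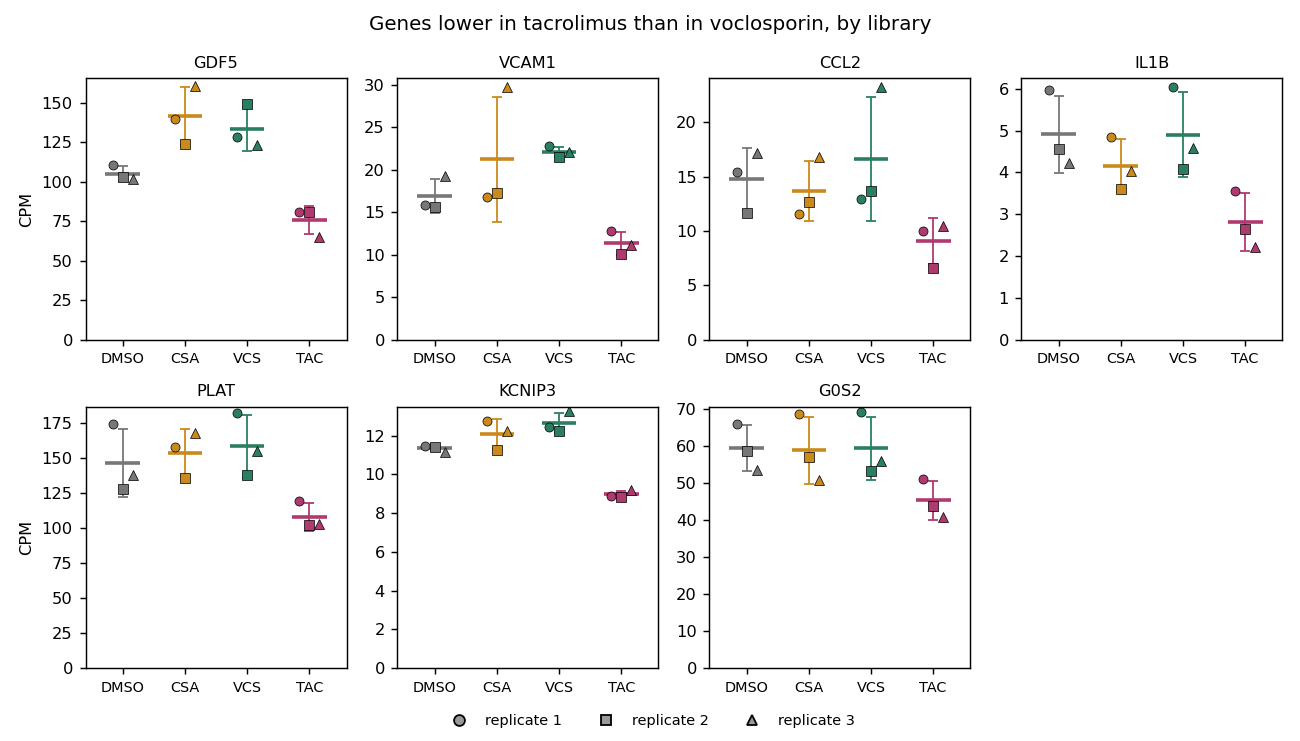
CPM of 7 genes lower in TAC than in VCS, in each library of the 4 groups, with means and SDs. The TAC and VCS libraries do not overlap in any panel, which was a condition for naming these genes. Every TAC mean lies below the DMSO, CSA and VCS means.

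A further set of calls had another order of the 4 groups. In 12 of the 41 genes the CSA mean was nearer TAC than VCS, and in the other 29 nearer VCS. The 12 include the surfactant protein genes SFTPA1 and SFTPA2, the basal keratins KRT5 and KRT14 and LTF, which encodes the secreted iron-binding protein lactoferrin. SFTPA1 was 0.363, 0.119 and 0.0307 CPM in TAC and 4.74, 3.18 and 2.11 in VCS, with 4.26, 3.04 and 3.86 in DMSO and 0.265, 0.223 and 0.116 in CSA. TAC and CSA were low and VCS and DMSO high. Summed counts were 17 in TAC and 312 in VCS, a ratio of 19.3 (95% exact interval 11.9 to 33.5, counting error only), and the fitted difference was -4.28 ± 0.39 (adjusted p = 0.0006).

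SFTPA2 was 1.03, 0.801 and 0.615 CPM in TAC and 7.39, 4.58 and 2.504 in VCS (-2.501 ± 0.29, adjusted p = 0.0036). SFTPA1 and SFTPA2 are near-identical copies, so reads may be split between them. KRT5 was 2.42, 1.19 and 1.20 CPM in TAC and 16.3, 10.2 and 4.94 in VCS (-2.65 ± 0.28, adjusted p = 0.0019). KRT14 was 0.453, 0.267 and 0.246 CPM against 6.37, 4.54 and 1.47 (-3.61 ± 0.45, adjusted p = 0.0068), and LTF differed by -1.84 ± 0.26 (adjusted p = 0.014). In all 5 genes VCS 1 was the highest VCS library and VCS 3 the lowest. The KRT14 call was lost without TAC 1 or TAC 2, and that of LTF in 5 of the 6 fits with a library left out.

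These are genes of airway, gland and basal epithelia. The airway and surfactant markers summed to 21.8 to 26.8 CPM in TAC and 30.2 to 41.5 in VCS, with 9 of 10 tested members below 0 and 2, SFTPA1 and SFTPA2, past the threshold; SCGB3A2 was at 0 counts in all 6 libraries. The basal and squamous markers summed to 227 to 249 CPM in TAC and 232 to 314 in VCS, with 6 of 12 below 0 and 2, KRT5 and KRT14, past. Endothelial markers summed to 20.9 to 34.7 CPM in TAC and 24.97 to 42.3 in VCS, with 12 of 13 below 0 and none past. Tubular epithelial markers summed to 165 to 166 CPM in TAC and 191 to 216 in VCS, without overlap. GGT1 made up most of each sum, at 102, 100 and 108 CPM in TAC and 119, 126 and 154 in VCS. Of 12 listed, 7 were tested, with 5 below 0 (median -0.36) and none past. UMOD and AQP2 were at 0 counts in all 6 libraries. Parietal epithelial markers summed to 2305 to 2397 CPM in TAC and 2465 to 2597 in VCS, also without overlap, with 7 of 10 below 0. Mesangial and smooth muscle markers summed to 1216 to 1367 CPM in TAC and 1371 to 1455 in VCS, with 5 of 11 below 0. Neither list had a gene past the threshold. Hepatocyte markers summed to 463 to 531 CPM in TAC and to 522, 259 and 261 in VCS 1, 2 and 3. Of 12 tested, 11 were above 0 and none passed. ALB alone was 280, 256 and 234 CPM in TAC and 259.5, 112.9 and 118.5 in VCS. The fit without a count filter, with 369 calls in all, called 8 hepatocyte markers higher. The blocked 6-library fit, with 229 calls in all, called 2 higher. Those fits called 2 and 0 endothelial, 1 and 1 tubular epithelial, 2 and 0 leukocyte and 0 and 1 parietal epithelial markers, all lower. The part of other cells' RNA in these results was not tested.

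H2BC26, a histone H2B gene, went the other way. It had 82 summed counts in TAC and 5 in VCS, between 1 and 3 in each VCS library, a ratio of 15.6 (95% exact interval 6.42 to 49.3, counting error only). Its CPM was 0.877, 0.683 and 0.922 in TAC, 0.706, 1.11 and 0.985 in CSA, and 0, 0.0615 and 0 in DMSO. The fitted difference was 3.85 ± 0.60 (adjusted p = 0.028), a call that was lost when any 1 TAC or VCS library was left out.

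The ribosomal RNA gene RNA5-8SN2 was 9.37, 8.70 and 11.6 CPM in TAC and 46.1, 53.9 and 19.2 in VCS (-1.87 ± 0.30, adjusted p = 0.029). ENSG00000280800, a noncoding gene in the same ribosomal DNA repeat on chromosome 21, was 1630, 1212 and 1395 CPM in TAC and 3415, 4901 and 1929 in VCS (-1.19 ± 0.21, adjusted p = 0.046). Both calls were lost without TAC 1, TAC 2, VCS 1 or VCS 2. With ENSG00000281383, at -1.67 (adjusted p = 0.031), these genes took 0.343% and 0.491% of counts in VCS 1 and VCS 2, and 0.0955% to 0.197% in the other 10 libraries. The libraries were poly(A)-selected, and the part of that share in these differences was not tested. SSTR5-AS1, an antisense RNA, was 0.181, 0.148 and 0.615 CPM in TAC and 0.864, 2.15 and 2.36 in VCS (-2.52 ± 0.43, adjusted p = 0.040), a call kept in 1 of the 6 fits with a library left out. The genes ENSG00000227706, ENSG00000290791 and ENSG00000290792 were higher in TAC by 0.76, 0.98 and 1.07, calls kept in 2, 1 and 1 of those fits.

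**Figure D4:**
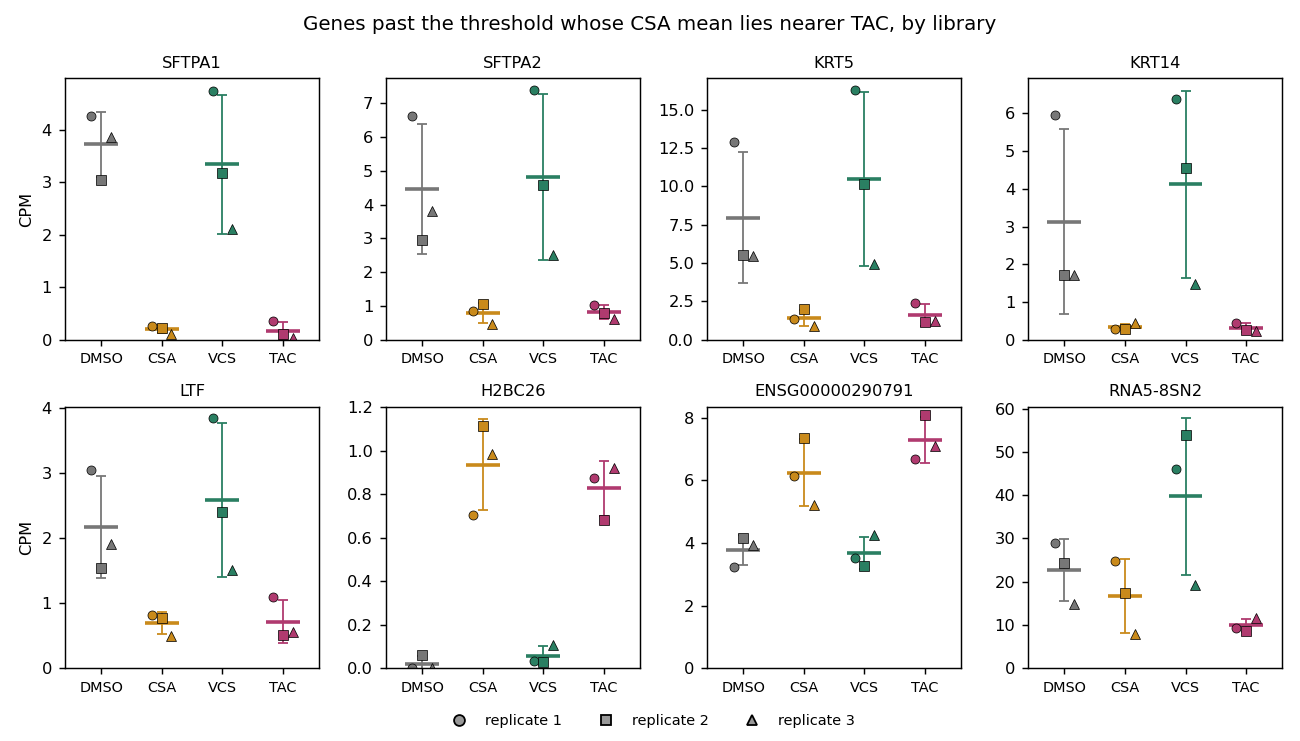
CPM in each library of 8 genes past the threshold whose CSA mean lay nearer TAC, with means and SDs. For the surfactant, keratin and LTF genes TAC and CSA sit low beside DMSO and VCS, and for H2BC26 they sit high.

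No call was made for the drug targets themselves. FKBP1A averaged 304 ± 9.14 CPM in TAC and 290 ± 12.5 in VCS (SD, n = 3), a difference of 0.07 with a 95% interval of -0.12 to 0.26. PPIA differed by 0.07 (-0.15 to 0.29) and PPP3CA, the calcineurin catalytic subunit, by -0.10 (-0.22 to 0.03). RCAN1, a calcineurin regulator whose transcription NFAT can drive, differed by -0.02 (-0.18 to 0.13). None of 15 FKBP, 14 cyclophilin or 20 calcineurin and NFAT genes passed; 0, 1 and 2 of them had an unadjusted p under 0.05 in edgeR's test, and DESeq2 called none. Of 20 NFAT targets, 15 were below 0 (median -0.11), with 7 lower and 1 higher at an unadjusted p under 0.05, beside 4.43% and 3.45% of all genes. IL11 passed as higher and CCL2 as lower. DESeq2, with 202 genes called in all, called 1 higher and 2 lower.

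Podocyte structure and matrix lists held no gene past the threshold in edgeR's test over 12 libraries. The blocked edgeR fit of only the 6 libraries, with 229 calls in all, called 5 glomerular basement membrane and 2 interstitial matrix genes lower. It also called 1 podocyte transcription or secreted factor gene lower. For these lists, in that order, the fit without a count filter, with 369 calls in all, called 3, 4 and 1 lower. DESeq2, with 202 calls in all, called 1, 0 and 0. Of 26 slit diaphragm and foot process genes 21 were below 0 (median -0.06), and 1 had an unadjusted p under 0.05. ACTN4 differed by -0.01 (95% interval -0.16 to 0.14) and SYNPO by -0.02 (-0.26 to 0.22), whereas for WT1 the interval of -0.62 to 0.74 was wide. Glomerular basement membrane genes had 16 of 19 below 0 (median -0.17) and 6 with an unadjusted p under 0.05, led by the laminin LAMB3 at -0.40 (adjusted p = 0.25). Interstitial matrix genes had 21 of 27 below 0 (median -0.20). COL1A2, a type I collagen chain, was 7.62, 1.22 and 1.20 CPM in TAC and 10.5, 6.55 and 6.80 in VCS, so the groups overlapped through TAC 1.

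Most cell cycle and mitosis genes lay above 0, with no call in edgeR's test over 12 libraries. The blocked fit of only the 6 libraries called 7 of these genes higher, among 229 genes called in all. The fit without a count filter called 8 higher among its 369 calls, and DESeq2 2 among its 202. Of 43, 39 were above 0, with a median of 0.13, and 17 had an unadjusted p under 0.05, all higher, beside 3.45% of all genes. Without the replicate block over 12 libraries 0 passed. There 7 had an unadjusted p under 0.05 in edgeR's test, all higher, among 718 such genes in both directions. KIF20A, a mitotic kinesin, was 70.8, 51.9 and 52.6 CPM in TAC and 47.0, 40.2 and 41.2 in VCS (0.44, adjusted p = 0.083). ATF4 targets (28 of 34 below 0, median -0.08), unfolded protein response genes (21 of 27, -0.12) and lysosome and autophagy genes (24 of 29, -0.11) had no gene past the threshold, and 2, 4 and 3 with an unadjusted p under 0.05, all lower, beside 4.43% of all genes; DESeq2 called none, and the blocked 6-library fit called 1 lysosome gene lower. Interferon-stimulated genes had a median of -0.01, with 24 of 45 below 0 and none past the threshold. At an unadjusted p under 0.05 in edgeR's test 4 were lower and 0 higher, beside 4.43% and 3.45% of all genes. The blocked 6-library fit called 1 lower.

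**Figure D5:**
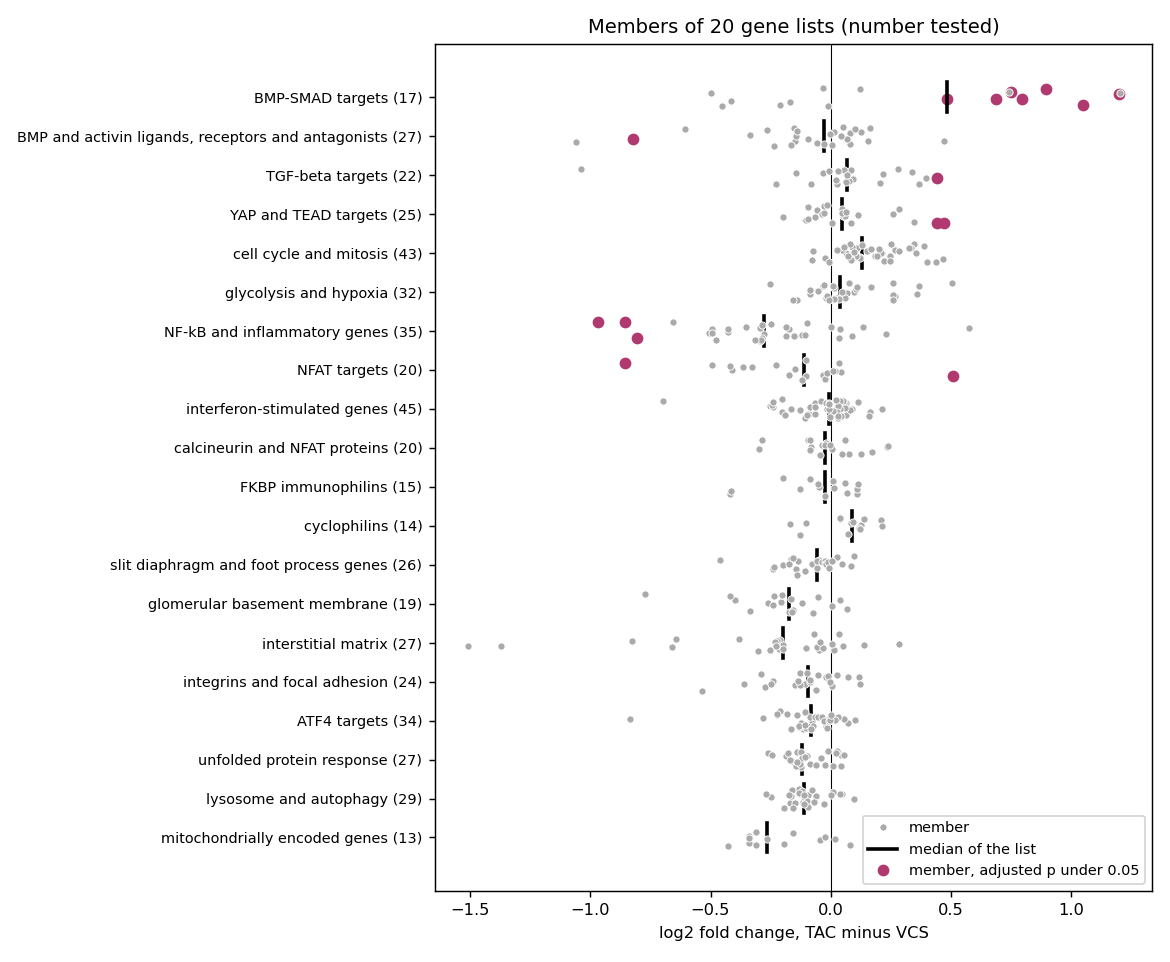
Log2 fold change of TAC against VCS for each tested member of 20 gene lists, with list medians as black bars and members past the threshold coloured. The BMP-SMAD list has the highest median, 0.48, and the NF-kB list the lowest, -0.28, among the lists drawn.

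Across the 41 genes, the fitted difference from DMSO was larger in TAC than in VCS in 39. These genes were chosen for a difference between TAC and VCS and both differences use the same DMSO libraries, so the count is a description. NPTX1, BIRC2, KCNA7, SSTR5-AS1, ID4, NOG, BAMBI, BMPR1A, BMPR2, ACVR1, NOC2L, the other CGB copies and the genes given by identifier were named after their values were seen. RUNX2, BMPER and the untested markers CD3E, SCGB3A2, UMOD and AQP2 were also named outside the naming rule given below.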

How the data were processed

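Gene-level estimated counts made with Salmon on GRCh38, per the submitters' processing notes, were deposited by the authors for 12 poly(A) libraries; versions, strand setting and collapsing of molecular identifiers are not given in the sources used here. The expected counts were rounded to whole numbers. Genes were kept by filterByExpr (minimum count 10), scaled by TMM and tested with edgeR 4.0.16 (R 4.3.3, limma 3.58.1) by the quasi-likelihood test over all 12 libraries, with group and replicate number as terms, the contrast TAC minus VCS and Benjamini-Hochberg adjustment at 0.05. CPM are from these scaled counts, and SDs are over 3 libraries. SEs were derived from the log2 difference and its F statistic in the 12-library fit, so they include the spread in DMSO and CSA. The 95% intervals of differences use these SEs. DESeq2 1.42.0 was an alternative. The script was tested on simulated data. Same-numbered TAC and VCS libraries deviated together (r = 0.23, 0.25 and 0.53 across genes, each over 0.1), so the numbers were taken to pair the libraries; this is a hint from the data, not stated in the labels. TAC 1 and VCS 2, of different numbers, also reached 0.24, and same-numbered pairs with DMSO or CSA ranged from 0.0069 to 0.43. At 28808213 counts or more per library, depth limits mainly genes under about 1 CPM. Genes were named by a rule: up to 15 per direction past the threshold with a symbol, a mean log2 CPM of at least 0 and groups that do not overlap, up to 4 members of each list by smallest p with those past the threshold, and fixed drug-target and podocyte genes; the last paragraph of the results names those outside it. The comparison and the gene lists were chosen with earlier results of these data known.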

Additional observations from a re-analysis of the deposited data

How the results depend on the processing

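All 41 differences kept their direction in every alternative run, but the number of calls depended on the fit. RLE size factors gave 41 calls (25 higher in TAC, 16 lower) and robust estimation 40. Without a filter on low counts 369 genes passed (165 higher, 204 lower), with DESeq2 202 (106 and 96) and with only the 6 TAC and VCS libraries and the replicate block 229 (90 and 139); each of these included the 41. Without the replicate block 5 passed over 12 libraries (3 and 2), and 0 (0 and 0) over 6 libraries, where 568 had an unadjusted p under 0.05 in edgeR's test. Leaving out 1 library at a time gave 8 to 112 calls, 5 to 56 higher and 3 to 56 lower; the lowest came without TAC 2 and the highest without CSA 3. Without DMSO 1, DMSO 2 or DMSO 3, alternatives added after seeing the data as were those without a CSA library, 21, 18 and 25 passed. Without the 4 libraries numbered 3, 45 passed, 27 of them among the 41. The cause of these changes was not tested.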
